A study of Mus musculus with 6 samples.

Results

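The 7 genes described here encode the core of MHC class II antigen presentation. They are Cd74, H2-Aa, H2-Ab1, H2-Eb1, H2-DMa, H2-DMb1 and Ciita, and they were chosen by symbol among the 14975 genes of the expression table. All 7 were listed. The choice was made with values of this comparison already known, above all the high level of Cd74 in one pre-AML library. The levels below are therefore given as a description, and no test between the groups is given for these 7 genes.

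Platelets of peripheral blood from adult female mice on a C57BL/6 background were profiled by RNA-seq in 3 control and 3 pre-AML libraries, named here control 1 to 3 and pre-AML 1 to 3. Mice of both groups were irradiated and transplanted. Pre-AML mice received, after sub-lethal irradiation, GFP+ cells that carried a retroviral MLL-AF9 oncogene. Per the paper's methods, mice irradiated this way were secondary recipients. Their GFP+ cells came from primary recipients of transduced hematopoietic stem and progenitor cells. Control mice underwent the same procedure with normal bone marrow. Recipients were CD45.1 or C57BL/6 mice, and an irradiated host keeps some blood cells of its own. The sample labels call the groups WT and AML, with 3 to 4 mice pooled behind a library and 2 replicates per group, while the paper describes 3 independent mice and the stage 1 week after transplantation, called pre-AML. Whether the libraries stem from separate mice or from pools is thus not settled, and the spread between them may be partly technical.

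MHC class II molecules are pairs of an alpha and a beta chain that carry peptides from the endosome to the cell surface, where CD4+ T cells read them. The invariant chain, encoded by Cd74, holds the groove closed until it is cut away, and the DM heterodimer then exchanges the last fragment for a peptide. Class II is made by B cells, dendritic cells and macrophages under the transactivator CIITA, and platelets are known for MHC class I and not for class II.

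Values are FPKM, the reads on a gene divided by its length in kilobases and by the size of the library (in units of 1000000 reads), so that levels can be compared between genes as well as between libraries. The reads behind them were recovered from gene lengths and came to between 11935847 and 17778000 per library, with the most in pre-AML 3. For the 7 genes every recovered value was a whole number. Pre-AML 3 stood apart from the other libraries. In it, 273 genes were at 1 FPKM or more and at least 10 times the highest control, against 4 in pre-AML 1 and 9 in pre-AML 2, and its FPKM values were divided by 1.31 times its recovered reads, and by close to 1 times in the other libraries (lowest 0.983). The differences of the class II genes, and those pathway differences that moved by more than 1.5 times, are therefore also given without pre-AML 3.

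The class II transcripts were low in the controls and in pre-AML 1, with at most 35 reads on a gene (Cd74 in control 2). Apart from Ciita, they were clearly present in pre-AML 2 and higher still in pre-AML 3, where Cd74 was abundant. Ciita was also highest in pre-AML 3 but stayed low, with 16 reads in pre-AML 2 and 49 in pre-AML 3. The reads on all 7 genes together were 57, 91 and 56 in control 1, 2 and 3 and 47, 805 and 12091 in pre-AML 1, 2 and 3. Per 1000000 recovered reads, control 1 had 4.78 (95% exact binomial interval 3.62 to 6.19), control 2 had 6.56 (5.28 to 8.05) and control 3 had 4.68 (3.53 to 6.07). Pre-AML 1 was at 3.47 (2.55 to 4.62), below the control values, while pre-AML 2 was at 54.0 (50.3 to 57.9) and pre-AML 3 at 680.1 (668 to 692). These intervals, and those of all ratios below, cover counting error only, since amplified reads without molecular identifiers are not independent molecules. In these bulk libraries, more cells of a kind that makes class II and more class II RNA per cell cannot be told apart.

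All 7 genes were above the highest control in pre-AML 3 and all 7 in pre-AML 2, against 42.6% and 26.2% of all listed genes. In pre-AML 1 it was 1 of the 7, against 23.5%. In pre-AML 3, 6 of the 7 were at 1 FPKM or more and at least 10 times the highest control, a level passed by 1.82% of listed genes. In pre-AML 2 the same held for 1 of the 7, Cd74, and for 0.0601% of listed genes, and in pre-AML 1 for 0 of the 7 and 0.0267%. These counts come from the contrast by which the genes were chosen, so nothing is read from them.

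**Figure D1:**
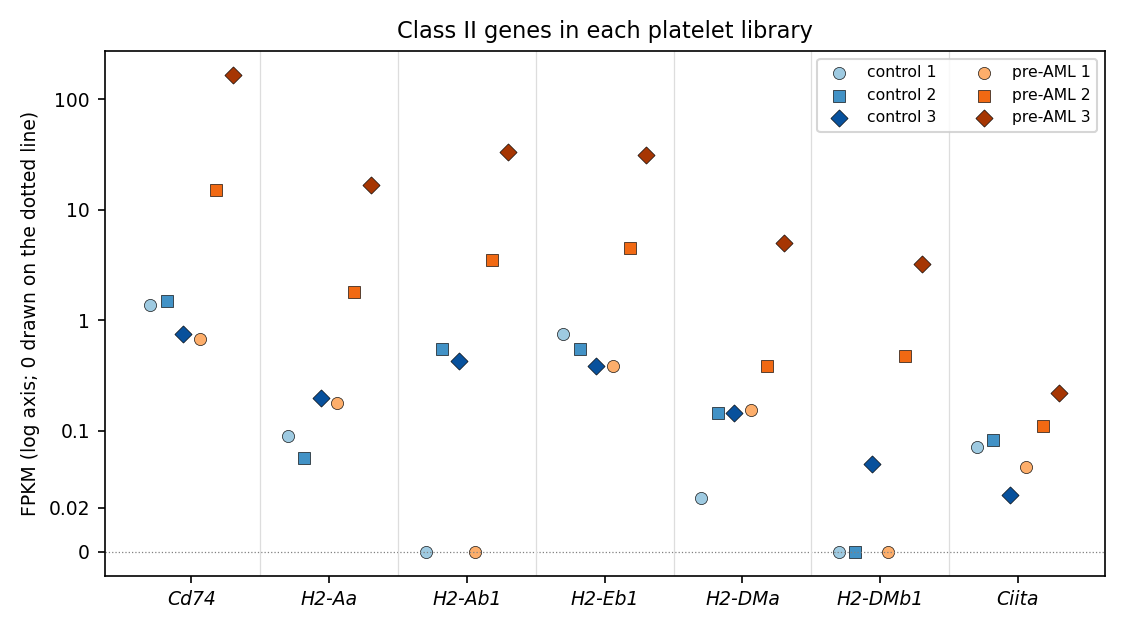
Each point is the FPKM value of one gene in one library, on a log axis with values of 0 drawn on the dotted line; blue points are the 3 control and orange to brown points the 3 pre-AML libraries. Pre-AML 3 is highest for all 7 genes, up to 168 FPKM for Cd74, pre-AML 2 is second for all 7, and pre-AML 1 lies among or beside the controls.

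Cd74 (Entrez gene 16149), the invariant chain, was the most abundant of the 7 genes in every library. It had 1.37, 1.48 and 0.751 FPKM in control 1, 2 and 3, from 27, 35 and 15 reads. In pre-AML 1, 2 and 3 it had 0.671, 15.2 and 168 FPKM, from 15, 385 and 6581 reads. Pre-AML 1 was thus below every control, and the groups overlapped. Ranked by FPKM among all genes, Cd74 stood at place 203 in pre-AML 3 and 1181 in pre-AML 2, against places 3658 to 4661 in the controls and 4929 in pre-AML 1. The mean of the control libraries was 1.2 ± 0.394 FPKM (SD, n = 3), and that of the pre-AML libraries was 61.3 ± 92.7 FPKM (SD, n = 3), an SD larger than the mean. The difference of mean log2(FPKM + 1) was 2.93, and 1.26 without pre-AML 3. Relative to the pooled reads of the controls, Cd74 was 138 times as high in pre-AML 3 (95% exact interval 110.4 to 175) and 12.5 times as high in pre-AML 2 (9.76 to 16.2).

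H2-Aa, H2-Ab1 and H2-Eb1 encode the classical chains. All 3 lie close together on chromosome 17 in GRCm38, the build of the files (mm10), with H2-Ab1 (Entrez gene 14961) at chr17:34257689-34269419 on the plus strand, H2-Aa (14960) at chr17:34282744-34287823 on the minus strand and H2-Eb1 (14969) at chr17:34305867-34316674 on the plus strand. All are protein-coding. H2-Aa and H2-Ab1 pair as I-A. H2-Eb1 is the beta chain of I-E, whose alpha chain gene H2-Ea is known to be defective in C57BL/6 mice. H2-Ea was listed at 0 in 4 libraries, and its other values were 0.162 FPKM (control 3) and 0.435 FPKM (pre-AML 1), so it did not share the pattern of H2-Eb1.

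The promoters of the class II genes are known to share an X box, bound by RFX factors, an X2 box, bound by CREB, and a Y box, bound by NF-Y, on which CIITA assembles. Since H2-Aa, H2-Eb1 and H2-DMb1 had their highest levels in the same libraries, stretches before their RefSeq starts (GRCm38.p6) are shown 5′ to 3′ on the strand of the gene. Capitals mark a Y box core (CCAAT), an X box core or an X2 core (TGACG) on either strand. The stretch of H2-Aa is chr17:34287839-34287933 on the minus strand, that of H2-Eb1 chr17:34305757-34305851 on the plus strand and that of H2-DMb1 chr17:34153087-34153116 on the plus strand.
H2-Aa: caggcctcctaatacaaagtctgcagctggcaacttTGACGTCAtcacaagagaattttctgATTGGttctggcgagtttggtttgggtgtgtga
H2-Eb1: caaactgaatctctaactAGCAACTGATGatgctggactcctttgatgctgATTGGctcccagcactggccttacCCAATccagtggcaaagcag
H2-DMb1: ggtttacctAGTAACTGATGatgctaggct

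With position -1 as the base before the start, H2-Eb1 held an X core from -92 and Y cores from -59 and -35, and H2-DMb1 an X core from -95 and a Y core from -61, the latter outside the stretch shown. H2-Aa held a Y core from -48 and the X2 core on both strands, from -74 and -71, which overlap, but no X core as searched. Of 32851 promoters in the RefSeq table, 0.816% held the X core in the 250 bases before the start, 33.8% the Y core and 17.8% the X2 core. Of the 7 genes, 4 had an entry (H2-Aa, H2-Eb1, H2-DMa and H2-DMb1, with 2 starts for H2-DMa), and H2-Ab1, Ciita and Cd74 had none. H2-DMa held a Y core at one of its starts, from -198, and neither of the other cores. A match is a description of the sequence and not of binding.

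H2-Aa had 0.0897, 0.0561 and 0.199 FPKM in control 1, 2 and 3, from 4, 3 and 9 reads. It had 0.178, 1.8 and 16.8 FPKM in pre-AML 1, 2 and 3, from 9, 103 and 1490 reads. Pre-AML 1 lay within the range of the controls, and the other pre-AML libraries lay above it. The difference of mean log2(FPKM + 1) was 1.80 with all libraries and 0.71 without pre-AML 3.

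H2-Ab1 was listed at 0 in control 1 and in pre-AML 1, and had 0.553 and 0.425 FPKM in control 2 and control 3, from 20 and 13 reads. It had 3.54 FPKM in pre-AML 2 and 33.7 FPKM in pre-AML 3, from 137 and 2017 reads. The lowest control and the lowest pre-AML library were thus tied at 0, where 3 reads would have been worth 0.0995 FPKM (control 1) or 0.0878 FPKM (pre-AML 1). The difference of mean log2(FPKM + 1) was 2.05, and 0.71 without pre-AML 3.

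H2-Eb1 had 0.745, 0.548 and 0.389 FPKM in control 1, 2 and 3, from 17, 15 and 9 reads, and 0.387, 4.5 and 31.4 FPKM in pre-AML 1, 2 and 3, from 10, 132 and 1424 reads. Pre-AML 1 was again the lowest library of all. The difference of mean log2(FPKM + 1) was 2.01, and 0.83 without pre-AML 3. The gene overlaps Gm20513 on the opposite strand in GENCODE M21, and reads of the pair cannot be told apart without strand. Relative to the pooled controls, pre-AML 3 was 151 times as high for H2-Aa (92.4 to 264), 98.8 times for H2-Ab1 (70.1 to 144) and 56.1 times for H2-Eb1 (41.2 to 78.6).

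H2-DMa (Entrez gene 14998, chr17:34119541-34139101, plus strand) and H2-DMb1 (14999, chr17:34153072-34160230, plus strand) encode the chains of the DM peptide exchanger. H2-DMa had 0.0247, 0.144 and 0.146 FPKM in control 1, 2 and 3, from 1, 7 and 6 reads, and 0.153, 0.384 and 5 FPKM in pre-AML 1, 2 and 3, from 7, 20 and 402 reads. It was the 1 gene of the 7 whose groups did not overlap, by 7 reads in pre-AML 1 against 7 and 6 in control 2 and control 3, and 7.53% of all listed genes had every pre-AML library above every control. H2-DMa overlaps Brd2, Gm20493 and CR974462.4 on the minus strand and CR974462.3 on its own strand. Its difference of mean log2(FPKM + 1) was 0.94, and 0.19 without pre-AML 3.

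H2-DMb1 was listed at 0 in control 1, control 2 and pre-AML 1 and had 0.05 FPKM, from 1 read, in control 3. It had 0.473 and 3.26 FPKM in pre-AML 2 and pre-AML 3, from 12 and 128 reads. With 1 control read in all, the ratio of pre-AML 3 to the pooled controls was 207 with an interval of 36.5 to 8234. Its neighbour H2-DMb2 is a close copy, and reads can be split between them in a way that the counting decides. The sum of both was 0.293, 0 and 0.05 FPKM in the controls and 0, 1.08 and 11.8 FPKM in pre-AML 1, 2 and 3, which gave the same order of pre-AML 2 and pre-AML 3.

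Ciita (Entrez gene 12265, chr16:10480059-10528418, plus strand), the transactivator, had the lowest levels of the 7 genes in pre-AML 2 and pre-AML 3 and differed least. It had 0.0715, 0.082 and 0.0264 FPKM in control 1, 2 and 3, from 8, 11 and 3 reads, and 0.0473, 0.111 and 0.22 FPKM in pre-AML 1, 2 and 3, from 6, 16 and 49 reads. Relative to the pooled controls it was 3.6 times as high in pre-AML 3 (2.14 to 6.25) and 1.82 times in pre-AML 2 (0.892 to 3.62). These intervals leave out the spread between libraries and are no test between the groups. Ciita overlaps Dexi on the opposite strand. The difference of mean log2(FPKM + 1) was 0.09, and 0.03 without pre-AML 3.

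The fit across genes used 4412 genes whose average over the 6 libraries reached 1 FPKM. Of the 7 genes, 4 passed this filter (Cd74, H2-Aa, H2-Ab1 and H2-Eb1), and the last 3 of these were below 1 FPKM in every control, so that they passed only through pre-AML 2 and pre-AML 3. H2-DMa, with a mean of 0.975 FPKM, was just below it, and H2-DMb1 and Ciita had means of 0.631 and 0.0931 FPKM. The median difference of all 7, tested or not, was 1.80 in mean log2(FPKM + 1).

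Cd74, H2-Aa and H2-Ab1 kept similar proportions to each other in pre-AML 2 and pre-AML 3, while the share of H2-Eb1 was lower in pre-AML 3. Cd74 made up 58.5% of the summed FPKM of the 7 genes in pre-AML 2 and 65% in pre-AML 3, H2-Aa 6.91% and 6.51%, H2-Ab1 13.6% and 13%, and H2-Eb1 17.3% and 12.2%. The ratio of H2-Aa to H2-Ab1 was 0.508 in pre-AML 2 (95% exact interval 0.39 to 0.661) and 0.499 in pre-AML 3 (0.467 to 0.534). The exon length behind these levels was 3798 bases for H2-Aa and 2568 bases for H2-Ab1. A shorter transcript in use would move the ratio, and equally in both libraries only if both used it alike. Transcript use was not tested.

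The ratio of Cd74 to H2-Ab1 was 4.3 (3.53 to 5.26) in pre-AML 2 and 4.99 (4.75 to 5.25) in pre-AML 3. For H2-Eb1 to H2-Ab1 the ratios were 1.27 (0.994 to 1.63) and 0.933 (0.871 to 0.999), and for H2-DMa to H2-Ab1 they were 0.109 (0.0644 to 0.175) and 0.148 (0.133 to 0.165). For H2-DMb1 to H2-DMa they were 1.23 (0.549 to 2.64) and 0.653 (0.531 to 0.799). Each pair of intervals overlapped, which does not show that a ratio was constant. Ciita differed, with a ratio to Cd74 of 0.00732 (0.00414 to 0.012) in pre-AML 2 and 0.00131 (0.000969 to 0.00174) in pre-AML 3. Cd74 and H2-Eb1 also differed from each other, as the next paragraph gives.

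Between these libraries, the FPKM of the 7 genes was a median of 9.35 times as high in pre-AML 3 as in pre-AML 2. The ratio was 11.1 (9.97 to 12.3) for Cd74, 9.35 (7.66 to 11.5) for H2-Aa, 9.52 (8 to 11.4) for H2-Ab1, 6.98 (5.83 to 8.4) for H2-Eb1, 13 (8.3 to 21.5) for H2-DMa, 6.9 (3.81 to 13.7) for H2-DMb1 and 1.98 (1.11 to 3.73) for Ciita. The intervals of Cd74 and H2-Eb1 did not overlap, so the genes did not all keep one ratio within counting error.

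**Figure D2:**
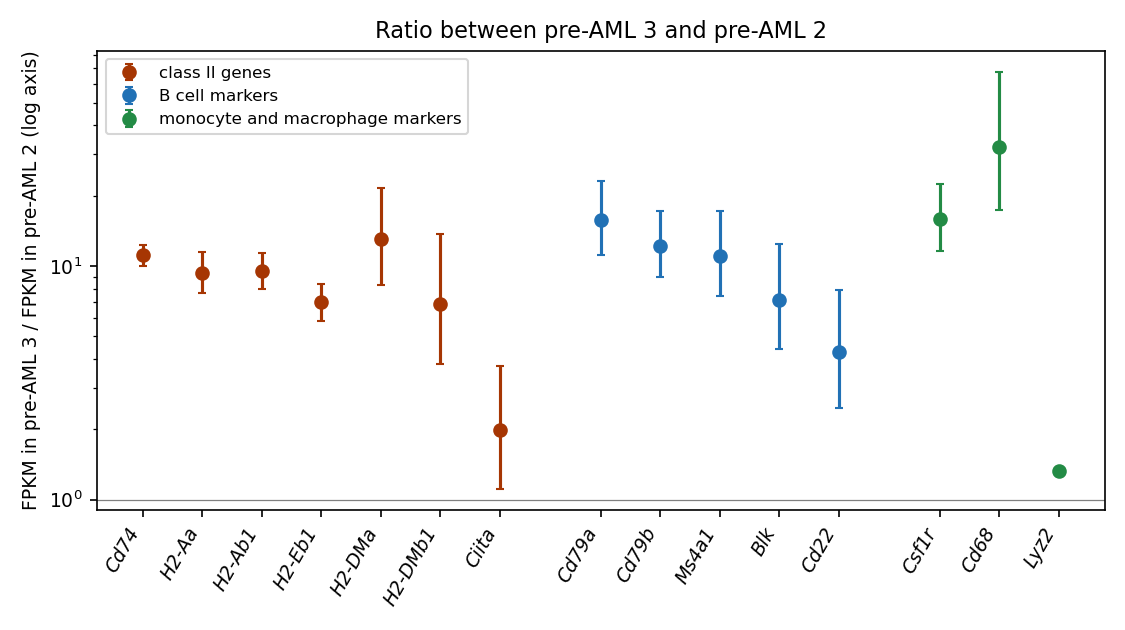
Points are the FPKM in pre-AML 3 divided by that in pre-AML 2 for the 7 class II genes and for 5 B cell and 3 monocyte and macrophage markers with at least 10 reads in pre-AML 2; bars are 95% exact intervals of counting error on a log axis, and the grey line marks a ratio of 1. The class II genes other than Ciita lie between 6.9 and 13, the 5 B cell markers shown between 4.27 and 15.7, and Csf1r and Cd68 at 15.9 and 32.3.

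Markers of cells that make class II were read in the same libraries. The counts of markers stand beside 42.6%, 26.2% and 23.5% of all listed genes above the highest control in pre-AML 3, 2 and 1. Of 10 listed B cell markers, 9 were above the highest control in pre-AML 3, 7 in pre-AML 2 and 0 in pre-AML 1. Their summed level was 0.158 to 1.09 FPKM in the controls and 0.209, 4.95 and 63.8 FPKM in pre-AML 1, 2 and 3. Cd79a and Cd79b, which encode the signaling chains of the B cell receptor, had 1.5 and 1.9 FPKM in pre-AML 2 and 23.6 and 23.2 FPKM in pre-AML 3, against at most 0.292 and 0.529 FPKM in the controls. Pax5, Blk and Cr2 were listed at 0 in all controls. For 5 B cell markers with at least 10 reads in pre-AML 2 (Cd79a, Cd79b, Ms4a1, Blk and Cd22), the median level was 11 times as high in pre-AML 3 as in pre-AML 2.

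All 12 monocyte and macrophage markers were above the highest control in pre-AML 3, 6 in pre-AML 2 and 3 in pre-AML 1. The count in pre-AML 1 was near the share of all listed genes (23.5%). Lyz2, which encodes lysozyme, was high everywhere, at 2384 to 2615 FPKM in the controls and 2483, 2333 and 3093 FPKM in pre-AML 1, 2 and 3. Without it, the summed level of the other 11 was 0.146 to 0.751 FPKM in the controls and 0.289, 1.56 and 284 FPKM in pre-AML 1, 2 and 3. C1qb, a chain of complement C1q made by macrophages, had 0.0783, 0.457 and 0 FPKM in the controls, 0 and 0.122 FPKM in pre-AML 1 and pre-AML 2 and 128 FPKM in pre-AML 3. Csf1r, the receptor for the macrophage growth factor M-CSF, had at most 0.0148 FPKM in the controls and 0.0651, 0.459 and 7.3 FPKM in pre-AML 1, 2 and 3, so that markers of this list were above the controls in pre-AML 2 as well. Fcgr1, Mertk and Cd14 were listed at 0 in all controls.

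Dendritic cell markers differed among themselves. The 9 listed markers summed to 9.9 to 13.7 FPKM in the controls and 10.9, 10.4 and 11 FPKM in pre-AML 1, 2 and 3. Of the 9, 4 were above the highest control in pre-AML 3 and 2 in each of the other pre-AML libraries. These counts were near the shares of all listed genes, 42.6% in pre-AML 3, 26.2% in pre-AML 2 and 23.5% in pre-AML 1. Flt3 was listed at 0 in 5 libraries and had 0.0139 FPKM in pre-AML 3. Xcr1 and Clec9a were present in every library, at 5.53 to 8.1 and 3 to 4.42 FPKM in the controls and 5.15 and 2.03 FPKM in pre-AML 3. Without these, the other 7 summed to 1.37, 2.32 and 0.718 FPKM in the controls and 1.71, 1.61 and 3.78 FPKM in pre-AML 1, 2 and 3, with 4 of them above the highest control in pre-AML 3. Among these were Ccr7, a chemokine receptor of mature dendritic cells and lymphocytes, and Batf3. Ccr7 had 0, 0.402 and 1.76 FPKM in pre-AML 1, 2 and 3 and at most 0.359 FPKM in the controls. Batf3 had 0.751 FPKM in pre-AML 3 and at most 0.105 FPKM in the controls. Itgax and Zbtb46 went the other way. Itgax had 0.232 FPKM in pre-AML 3 and 0.315 to 0.763 FPKM in the controls. Zbtb46 had 0.106 FPKM in pre-AML 3 and 0.158 to 0.2 FPKM in the controls. Fscn1, at 0.512 FPKM in pre-AML 3, lay within the control range of 0.14 to 1.13 FPKM.

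Of 10 listed T and NK cell markers, 9 were above the highest control in pre-AML 3, 5 in pre-AML 2 and 7 in pre-AML 1, with sums of 19.1 to 28.5 FPKM in the controls and 29.1, 29.5 and 35.4 FPKM in the pre-AML libraries. Most of the sum was Nkg7, at 22.6 FPKM in pre-AML 3, while Cd2 was at 0 in all controls and at 0.777, 0.495 and 6.84 FPKM in pre-AML 1, 2 and 3. Neutrophil markers summed to 3.19 to 3.66 FPKM in the controls and 5, 2.18 and 2.6 FPKM in the pre-AML libraries, with S100a8 at 0.124 and Mmp8 at 0.795 FPKM in pre-AML 3, and 2 of 11 above the highest control there. Erythroid markers were led by Hba-a1 and Hbb-bt at 1721 and 639 FPKM in pre-AML 3. Of 7 listed, 3 were above the highest control in that library, near the share of all listed genes (42.6%). Their sum was 2365 to 2665 FPKM in the controls and 2386 to 2999 FPKM in the pre-AML libraries. The 10 platelet markers, led by Pf4 and Ppbp, summed to 89437 to 113456 FPKM in the controls. In pre-AML 1, 2 and 3 they summed to 90468, 91998 and 61262 FPKM, far above every other marker list in each library. Of the 10, 1, 5 and 0 were above the highest control in pre-AML 1, 2 and 3, beside 23.5%, 26.2% and 42.6% of all listed genes. The scaling of pre-AML 3, by 1.31 times its recovered reads, lowers every level in that library. Platelets had been purified by depletion of cells with CD45 or Ter119. Ptprc, the gene of CD45, had 0.0863, 0.006 and 0.0142 FPKM in the controls and 0.14, 0.179 and 1.57 FPKM in pre-AML 1, 2 and 3. The part of other cells in the class II levels was not tested.

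**Figure D3:**
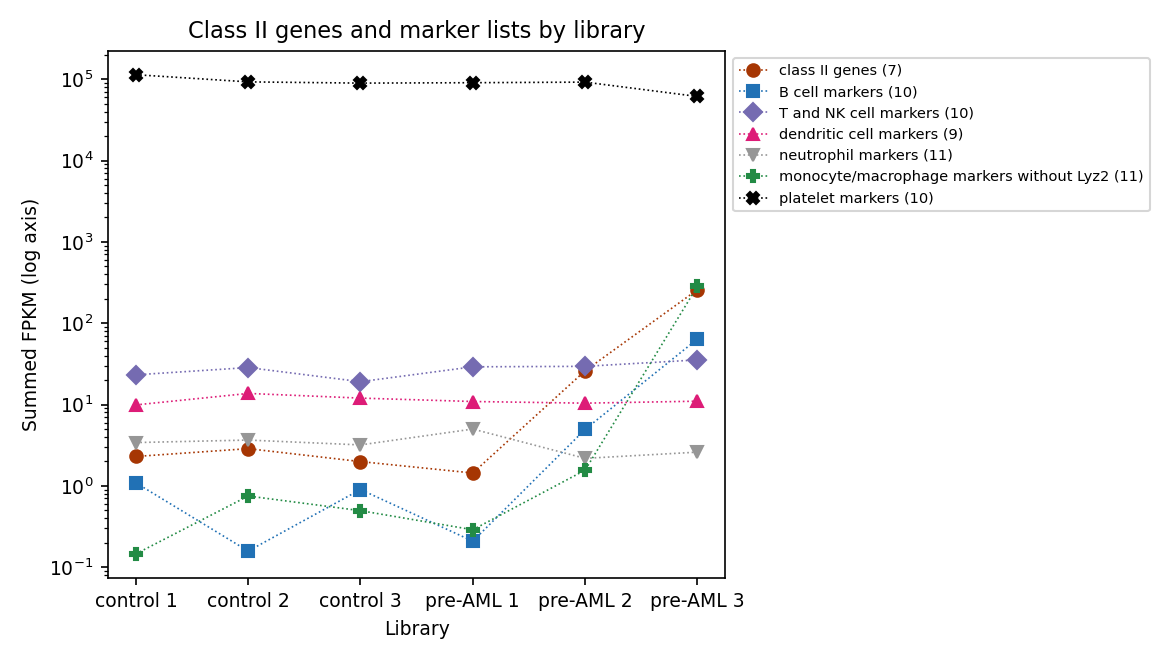
Points are the summed FPKM of the 7 class II genes and of 6 marker lists in each library on a log axis, with the number of genes in brackets, and dotted lines only join the points of a list. The class II genes go from 1.44 FPKM in pre-AML 1 to 26 in pre-AML 2 and 258 in pre-AML 3, and the B cell markers from 0.209 to 4.95 and 63.8, while the macrophage markers without Lyz2 are at 1.56 in pre-AML 2 and 284 in pre-AML 3.

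The tested genes whose library profile was most like the class II genes were sought by the root mean square difference between centred log2(FPKM + 1) profiles over the 6 libraries, with the mean profile of the 4 tested class II genes as reference. This is a description, since the reference genes were chosen for their high level in pre-AML 3 and every profile compared had passed the filter. H2-Ab1 and H2-Eb1 themselves differed from this mean by 0.192 and 0.203, H2-Aa by 0.414 and Cd74 by 0.611. The nearest other genes were Ly6d at 0.308, Cd79a at 0.349, Cd79b at 0.382, Ifi27l2a at 0.4 and Ctss at 0.471. Ly6d, a surface marker of the B lineage, had 0, 0.287 and 0 FPKM in the controls and 0, 1.51 and 23.3 FPKM in pre-AML 1, 2 and 3. Ifi27l2a, an interferon-stimulated gene, had 1.84, 2.46 and 0.726 FPKM in the controls and 0.487, 6.16 and 44.1 FPKM in the pre-AML libraries. Without pre-AML 2 or without pre-AML 3, 1 of these 5 was still among the nearest 5, and with no filter on low values 0 of them were.

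The rest of the pathway was read from 7 lists with 49 listed genes, of which 25 were tested. With an adjusted p under 0.05 from limma-trend, 0 of them were higher and 0 lower, beside 0.0227% of all tested genes higher (1 gene) and 0% lower. At an unadjusted p under 0.05 it was 1 of them in each direction, beside 2.56% of all tested genes higher and 6.53% lower. Among the 25, 15 had a difference above 0 and 10 below, while 41.5% of all tested genes were above 0. Some of the 15, among them Ctss, Ifi30, H2-DMb2 and Tap2, were below 1 FPKM in every control. Their level in pre-AML 3 carried their mean past the filter, which fixed the sign of their difference. Nothing is therefore read from these counts, or from the counts and medians of the single lists below. Limma-voom on recovered reads also called 0.

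Genes of antigen processing had a median difference of 0.24 in mean log2(FPKM + 1) over 9 tested genes of 10, 8 of them above 0 (0.25 without pre-AML 3). The most abundant, cathepsins D and Z, were platelet transcripts at similar levels in all libraries. Ctsd had 1068, 1011 and 1146 FPKM in the controls and 1167, 1203 and 1007 FPKM in the pre-AML libraries (difference 0.06, standard error 0.131, adjusted p = 0.854 from limma-trend; 0.14 without pre-AML 3), and Ctsz had a difference of 0.09 (standard error 0.144; 0.20 without pre-AML 3). Ctss, the cathepsin that cuts the invariant chain in antigen-presenting cells, had 0, 0 and 0.248 FPKM in the controls and 0, 1.27 and 47.6 FPKM in pre-AML 1, 2 and 3 (difference 2.16, standard error 1.19, adjusted p = 0.529 from limma-trend; 0.48 without pre-AML 3). Ifi30, a thiol reductase of the same compartment named after its values were seen, had 0.608, 0.942 and 0.0857 FPKM in the controls and 1.15, 2.09 and 36 FPKM in pre-AML 1, 2 and 3 (difference 2.06; 0.78 without pre-AML 3). Lgmn, a protease of the endosome, was the gene of this list with an unadjusted p under 0.05 (difference 0.66, standard error 0.264, adjusted p = 0.522 from limma-trend; 0.39 without pre-AML 3).

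Among other class II and loading genes, 2 of 5 listed were tested, with a median difference of 0.76 (0.26 without pre-AML 3). Of these, H2-DMb2 passed the filter only through pre-AML 3. H2-DMb2 had 0.293, 0 and 0 FPKM in the controls and 0, 0.607 and 8.49 FPKM in pre-AML 1, 2 and 3 (difference 1.19, standard error 0.713, adjusted p = 0.547 from limma-trend; 0.22 without pre-AML 3). H2-Ob, the beta chain of DO, an inhibitor of DM, had another pattern, with 1.8, 1.16 and 1.53 FPKM in the controls and 2.14, 1.97 and 2.35 FPKM in pre-AML 1, 2 and 3. All 3 pre-AML libraries were above the controls (difference 0.34, standard error 0.167, adjusted p = 0.522 from limma-trend; 0.30 without pre-AML 3). Its partner H2-Oa was at 0.0606, 0 and 0 FPKM in the controls and 0, 0 and 0.731 FPKM in the pre-AML libraries.

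Most factors that bind class II promoters were at low levels. Of 7 listed, 2 were tested, Nfyb with a difference of -0.08 (standard error 0.168; 0.06 without pre-AML 3) and Nfyc with 0.07 (standard error 0.163), and both had an adjusted p above 0.8 from limma-trend (0.866 and 0.871). Rfx5 had 0.0465, 0.0517 and 0.0306 FPKM in the controls and 0.0137, 0.0603 and 0.234 FPKM in pre-AML 1, 2 and 3, the last from 30 reads and above every other library. For interferon gamma signaling, which induces Ciita in many cell types, 5 of 12 genes were tested with a median difference of -0.20 (-0.07 without pre-AML 3). Jak1 and Jak2 had differences of -0.18 and -0.20 (standard errors 0.161 and 0.211), which were -0.07 and -0.02 without pre-AML 3. Ifng itself was at 0 in all controls and at 0.116, 0 and 0.563 FPKM in pre-AML 1, 2 and 3.

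Of the 3 listed turnover genes, Marchf8, a ubiquitin ligase, was tested (difference -0.17, standard error 0.177, adjusted p = 0.697 from limma-trend; -0.02 without pre-AML 3), and Cd83, which stabilizes surface class II, had 0.0331, 0.387 and 0 FPKM in the controls and 0, 0 and 1.15 FPKM in the pre-AML libraries. Co-stimulatory molecules were at or near 0 in the controls with 1 exception. Cd80, Cd86, Cd40 and Icosl were listed at 0 in all 3 controls, and Cd86 had 0, 0.0362 and 0.995 FPKM in pre-AML 1, 2 and 3. Cd274, which encodes PD-L1, had 11.3, 14.3 and 15.3 FPKM in the controls and 11.3, 13.1 and 11 FPKM in the pre-AML libraries (difference -0.19, standard error 0.154, adjusted p = 0.62 from limma-trend).

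Among genes of MHC class I, the chains were at high levels in all libraries. B2m, its light chain, had 63354, 63431 and 65038 FPKM in the controls and 60575, 51374 and 32662 FPKM in pre-AML 1, 2 and 3 (difference -0.45, standard error 0.209, adjusted p = 0.522 from limma-trend; -0.20 without pre-AML 3). H2-D1, a heavy chain, had 558, 584 and 698 FPKM in the controls and 729.8, 632 and 678 FPKM in the pre-AML libraries (difference 0.15, standard error 0.139). Tap1 and Tap2, which carry peptides into the endoplasmic reticulum, were low and had their highest levels in pre-AML 2 and pre-AML 3. Tap1 had 0.264, 0.35 and 0.107 FPKM in the controls and 0.206, 0.412 and 1.86 FPKM in pre-AML 1, 2 and 3. Tap2 had 0.586, 0.564 and 0.467 FPKM in the controls and 0.636, 0.806 and 2.95 FPKM in the pre-AML libraries (difference 0.56, standard error 0.33, adjusted p = 0.537 from limma-trend; 0.16 without pre-AML 3). Over the 5 tested class I genes of 6, the median difference was 0.10 (0.09 without pre-AML 3).

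**Figure D4:**
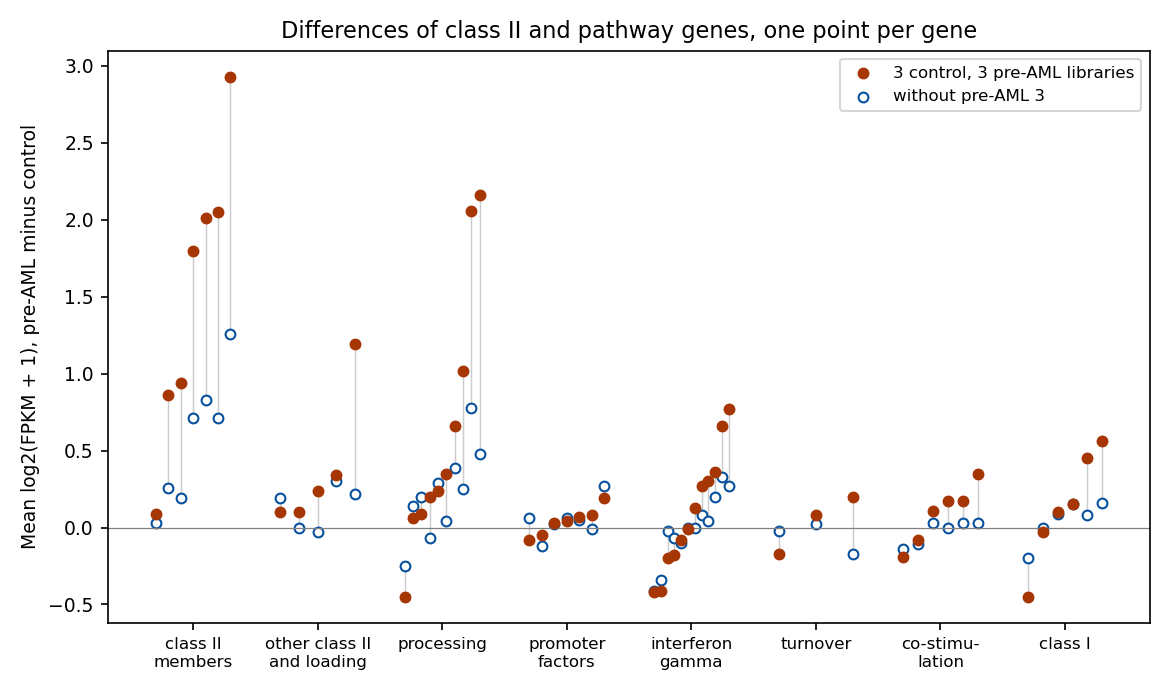
Each filled point is the difference of mean log2(FPKM + 1) between 3 pre-AML and 3 control libraries for one gene, and each open point the same without pre-AML 3, by list. The class II genes span 0.09 for Ciita to 2.93 for Cd74 with all libraries and 0.03 to 1.26 without pre-AML 3, and Ctss and Ifi30 are the only processing genes above 2.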

How the data were processed

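Platelet RNA of 3 control and 3 pre-AML libraries was amplified with SMART-Seq2. Per the submitters' processing notes, alignment was to mm10 by STAR and DESeq2 served for testing; the authors deposited 1 table of FPKM values for 14975 genes. The counting program and annotation are not given in the sources used here. Columns were matched to samples by name, and groups were named after the paper.

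Reads were recovered from FPKM, union exon lengths in GENCODE M21 (14903 genes) and the value of 1 read in each library. Of values under 100 reads, 83.1% were within 0.02 of a whole read. On 2 kb, 3 reads are worth 0.0643 to 0.128 FPKM. The library sizes behind the FPKM values differ from the recovered reads mainly in pre-AML 3, where the scaling lowers every level.

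Genes averaging 1 FPKM or more over the 6 libraries were tested on log2(FPKM + 1), a scale that understates changes of low genes, with limma-trend (limma 3.58.1, R 4.3.3), Benjamini-Hochberg adjustment and a threshold of 0.05. Intervals are exact binomial (Clopper-Pearson, for ratios conditional on the sum of both counts; scipy 1.17.1, Python 3.11.15). The class II genes and all lists were chosen with earlier results of these data known. Named were all 7 class II genes, called genes of each pathway list or else its 2 most abundant, the 2 highest genes of each marker list and the 5 nearest profiles. Others, among them Ctss, Ifi30, Lgmn, H2-Ea, H2-Oa, Rfx5, Ifng, Tap1, Tap2, Csf1r, Ccr7, Batf3, Itgax, Zbtb46, Fscn1, Flt3 and Ptprc, were chosen after their values were seen. Some genes of these lists, counted in them, are not reported here by name. Promoters are from RefSeq (GRCm38.p6).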

Additional observations from a re-analysis of the deposited data

How the results depend on the processing

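Of the 7 class II genes, all kept a positive difference under the alternatives run for them, which did not include limma-voom, with Ciita as low as 0.02 under quantile normalization. Their median difference, 1.80 in mean log2(FPKM + 1), was between 0.71 (without pre-AML 3) and 2.66 (without pre-AML 1) with 1 library left out, 2.68 with a pseudocount of 0.1 and 5.60 as a log2 ratio of mean reads per 1000000 with no pseudocount, a scale chosen after seeing the data, on which low genes are not compressed. The count of genes with a higher level past the threshold, 1 in the main analysis, was 0 with no filter on low values, 0 with libraries rescaled to the same total FPKM, 0 with libraries rescaled to their recovered reads and 0 with limma-voom on recovered reads, both chosen after seeing the data, and between 0 and 2 with 1 library left out. The cause was not tested. It was 0 without control 1 and without control 3, and 2 without pre-AML 3. The median difference of the pathway genes, 0.09, was 0.26, 0.20, 0.22 and 0.25 with equal total FPKM, quantile normalization, recovered reads and limma-voom, and between 0.02 and 0.18 with 1 library left out (0.18 without control 3). Equal total FPKM moved the median of all tested genes from -0.06 to 0.08. Of the 5 genes most like the class II genes, 1 remained with a pseudocount of 0.1 and 0 with no filter, where the reference profile is the mean of 7 genes in place of 4, and 1 to 5 with 1 library left out. Equal replicate numbers did not pair the libraries (correlations of deviations -0.04, -0.12 and -0.17), and with the replicate number as a block the count of higher genes was 1 and the median of the class II genes 1.80. With 250 or 150 bases of promoter, 4 or 3 genes held a Y core. Values near 0, as in the controls, rest on a few reads each.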
